A study of Homo sapiens with 6 samples.

Results

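The bone morphogenetic proteins (BMPs), activins and transforming growth factors beta (TGF-beta) form one family of secreted ligands, and the genes described here are those ligands with their receptors, SMAD transducers, inhibitors and ID target genes. A list of 46 gene symbols was looked up in the deposited expression table. The symbols of 45 genes were found among its 31785 rows, and the expression of BMP5 is not analysed here. Of these 45, 40 passed the filter on low values and were tested among 13558 genes in all.

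RNA sequencing had been run on D283 Med, a cell line from a childhood medulloblastoma, which is a tumour of the cerebellum. There were 3 libraries labelled as Musashi-1 knockdown (KD1, KD2 and KD3) and 3 labelled WT (VV1, VV2 and VV3, the headings of the columns taken as WT by elimination). All came from this 1 line, grown in serum-containing medium. The genotype label of KD1, KD2 and KD3 reads MS1 Knockdown and its titles read Musashi-1 Knockdown. The method of knockdown, any control treatment of WT and the number of cultures behind each group are not in the labels, so the p-values measure only the spread between these libraries, which may be technical.

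A ligand dimer of this family brings together type I and type II receptor kinases at the cell surface. BMP receptors then phosphorylate SMAD1, SMAD5 and SMAD9, whereas activin and TGF-beta receptors phosphorylate SMAD2 and SMAD3, and both kinds of SMAD enter the nucleus with SMAD4. In the developing cerebellum, BMPs from the roof plate help to specify granule cell precursors and can later restrain their proliferation. ID proteins, made from direct BMP target genes, block neurogenic basic helix-loop-helix factors.

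Musashi-1 binds RNA at short motifs with a UAG core, often in 3′ untranslated regions (UTRs), and GUAG was searched for as 1 form of it. The stretches of 24 bases below come from the longest annotated 3′ UTR of each of the 4 genes that passed the test, and show what such a site looks like in them. They are GENCODE 29 transcript sequence on GRCh38, written with T for U, and capitals mark GTAG.
BMP7, chr20:57170133-57170156, minus strand: cgccccagtgGTAGtaaatccatg
GDF11, chr12:55754426-55754449, plus strand: cttctggtctGTAGtggcGTAGaa
TGFBR3, chr1:91683323-91683346, minus strand: tagccagataGTAGaaccagtgag
SMURF1, chr7:99030059-99030082, minus strand: ccggttctggGTAGcagatcaatt
In the whole 3′ UTR, GTAG occurred 4 times in BMP7 (2211 bases), 17 times in GDF11 (7396 bases), 5 times in TGFBR3 (3394 bases) and 5 times in SMURF1 (3146 bases), counted on the mRNA strand and with overlaps allowed. By sites per kb, BMP7 stood at percentile 37.1 of the 11653 tested genes with a 3′ UTR, GDF11 at 49.5, TGFBR3 at 29.7 and SMURF1 at 32.1. The median was 2.15 sites per kb over the 40 tested members and 2.32 over those 11653 genes. At least 1 GTAG lay in 77.5% of the members' 3′ UTRs and in 82.3% of those of all tested genes. Among the 40 members the highest density was that of BMP6, with 6.49 per kb, and 9 members had none, among them ID1, ID3 and BAMBI. A match describes letters only and does not show binding.

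MSI1, the gene for Musashi-1, was looked up to check the labels. It had 1385, 1197 and 1281 normalised reads in KD1, KD2 and KD3, against 1586, 1572 and 1378 in VV1, VV2 and VV3. KD1 lay above VV3, so the groups overlapped. The knockdown mean was 85.2% of the WT mean, and the difference of −0.21 (SE 0.12) was not called (limma, adjusted p = 0.304). The mRNA of MSI1 thus left the knockdown labels unverified. MSI2, its paralog, had 6202 ± 915 in knockdown and 8255 ± 1691 in WT (SD, n = 3 each; difference −0.40, limma adjusted p = 0.198). MSI2 lies on the long arm of chromosome 17, where the 31 tested genes within 2 Mb of it had a median difference of −0.32. Depth was 18895997 to 24442276 reads per knockdown library and 17299671 to 38790342 per WT library. The Group 3/4 medulloblastoma markers EOMES, LMX1A and BARHL1 were near 0 in both groups, while OTX2, MYC, CRX, NRL and NEUROD1 were present. Summed over the 8 markers, the range was 55700 to 63320 normalised reads in knockdown and 40280 to 49300 in WT, without overlap. OTX2 and MYC held most of this sum, and the markers did not share a direction. CRX averaged 1543 in knockdown and 1863 in WT (difference −0.27), and NRL 389 in knockdown and 706 in WT (−0.60). NEUROD1 averaged 3018 in knockdown and 2373 in WT (0.48). MYC had 23087 ± 1202 in knockdown and 16640 ± 2263 in WT (SD, n = 3 each; difference 0.48, limma adjusted p = 0.0976), and OTX2 had 30373 ± 3590 in knockdown and 23664 ± 3341 in WT (0.36, limma adjusted p = 0.229). None of these markers was called, and their part in the members' differences was not tested. Summed fibroblast markers ranged over 2176 to 2346 normalised reads in knockdown and 2211 to 2779 in WT, of which PDGFRA and PDGFRB held most. Of the leukocyte markers in the table, PTPRC and CD68 had no read in any knockdown library and at most 2.93 and 1.26 in any WT library. Summed endothelial markers, mostly VWF and KDR, ranged over 160 to 313 in knockdown and 162 to 251 in WT. Summed astrocyte markers, mostly SLC1A3, ranged over 582 to 694 in knockdown and 477 to 1069 in WT.

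Among the 40 tested members, 1 rose and 3 fell in knockdown, where 4.1% of all tested genes were called. BMP7, a BMP ligand, rose 1.98-fold. GDF11, a ligand that signals through activin receptors, TGFBR3, the TGF-beta co-receptor betaglycan, and SMURF1, a ubiquitin ligase that removes BMP-pathway SMADs, fell. Called here means an adjusted p under 0.05 in limma, a linear model per gene with Benjamini-Hochberg adjustment over all 13558 genes. By direction, 1.78% of all tested genes rose and 2.32% fell. A difference is knockdown minus WT on the deposited log2-like scale, and normalised reads are the same values turned back to a linear scale. The log2-like scale compresses low values, so for genes of few reads a difference is smaller than the log2 of the ratio of means. The median difference was −0.01 over the members and 0.01 over all tested genes, and the lower and upper quartiles were −0.21 and 0.21 over the members, against −0.16 and 0.17 over all tested genes. The groups did not overlap in 12 of the 40 members, 4 higher and 8 lower in knockdown, compared with 27.8% of all tested genes. At an unadjusted p under 0.05 there were 5 members higher and 8 lower, compared with 22% of all tested genes in either direction. Less RNA per cell and fewer cells that express a gene cannot be told apart in these bulk libraries.

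**Figure D1:**
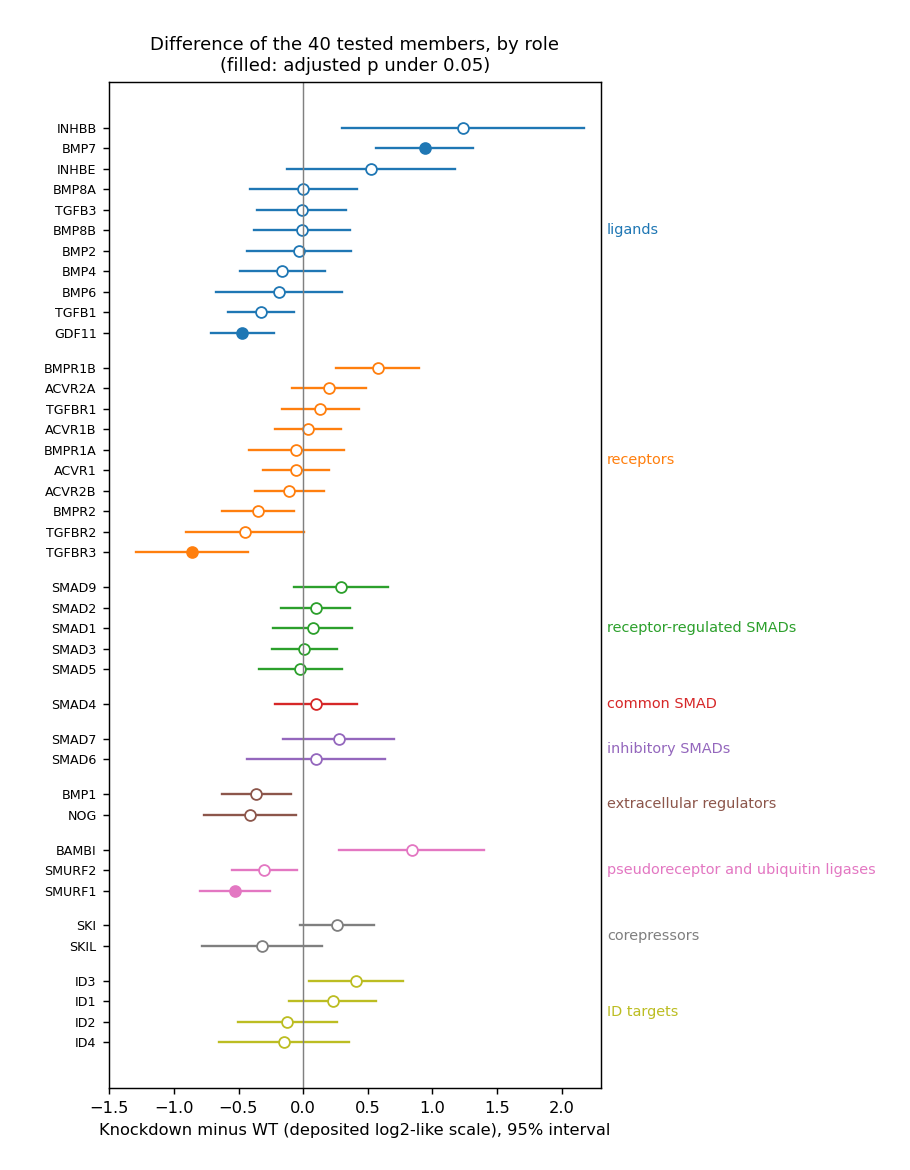
Difference of each tested member between 3 Knockdown and 3 WT libraries on the deposited log2-like scale, with the 95% interval of the limma model as a line, grouped and coloured by role. Filled points passed an adjusted p of 0.05: BMP7 lies right of 0, and GDF11, TGFBR3 and SMURF1 lie left of it, while the SMAD intervals all include 0.

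All 4 calls were sensitive to single libraries. None of the 4 was called without KD1, without KD2, without KD3 or without VV2. Without VV3, BMP7 was called and the 3 falls were not, and without VV1 only SMURF1 of the 4 was not called. Their signs were the same in each of the 16 alternative fits, and limma voom on recovered whole reads called these 4 members and no other.

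BMP7 was the most abundant BMP ligand mRNA per kb of exons in every library. The gene lies at chr20:57168748-57266629 on the minus strand. BMP7 had 3139, 4527 and 3247 normalised reads in KD1, KD2 and KD3, against 2234, 1707 and 1572 in VV1, VV2 and VV3. Every knockdown library was above every WT library, with KD2 the highest and VV3 the lowest. The means were 3638 ± 772 in knockdown and 1838 ± 350 in WT (SD, n = 3 each), and the difference was 0.94 (SE 0.17, 95% interval 0.57 to 1.32, limma adjusted p = 0.0182). Without KD2 the difference was 0.78 (limma adjusted p = 0.06). The 19 tested genes within 2 Mb on either side had a median difference of 0.01. Per kb of exons, BMP7 made up 74.6% ± 5.23 of the reads of the 6 measured BMP ligands in knockdown and 58.1% ± 8.04 in WT (SD, n = 3 each), a description that follows in part from its rise.

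The other BMP ligands were at lower levels and none passed the test. BMP4, which patterns dorsal neural tissue, had 213 ± 39.4 normalised reads in knockdown and 249 ± 38.5 in WT (SD, n = 3 each). BMP2, its close relative, had 94.1, 71.7 and 78.3 normalised reads in KD1 to KD3, against 49.8, 83.3 and 134 in VV1 to VV3. The BMP2 values of WT thus enclosed all those of knockdown. BMP6 had 43.6 ± 23.8 in knockdown and 59.9 ± 38.2 in WT, with VV2 the highest library at 104. BMP8A and BMP8B, near-identical neighbours whose reads may have been split between them, averaged 82.7 and 321 in knockdown against 83.6 and 317 in WT. The differences of these 5 genes lay between −0.19 and 0.0022, with standard errors of 0.15 to 0.22, and the sign of all but BMP4 changed in at least 1 alternative fit. BMP8A shares 267 of its 1692 exon bases with PPIEL on the other strand, which averaged 188 normalised reads in knockdown and 132 in WT. Whether reads of PPIEL entered the BMP8A value was not tested.

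GDF11, which limits the number of neurons made in several developing tissues, was lower in knockdown with little spread. The gene lies at chr12:55743280-55757278 on the plus strand. GDF11 had 1617, 1901 and 1695 normalised reads in KD1 to KD3, against 2447, 2528 and 2362 in VV1 to VV3. The lowest WT library was above the highest knockdown library by a margin larger than the spread of either group. It averaged 1738 ± 147 in knockdown and 2445 ± 83.0 in WT (SD, n = 3 each), which is 71.1% of the WT level, with a difference of −0.47 (SE 0.11, limma adjusted p = 0.0446). It was called in 8 of the 16 alternative fits, and its adjusted p ranged over them between 0.013 and 0.184.

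Neither tested activin subunit was called. INHBB, the activin B subunit, had 192, 895 and 200 normalised reads in KD1 to KD3, against 182, 60.5 and 67.5 in VV1 to VV3. The groups did not overlap, but KD1 and KD3 lay close above VV1 and KD2 was far above the other libraries. The mean ratio was 4.16 and the difference 1.24 (SE 0.42), which did not pass (limma, adjusted p = 0.126), and without KD2 it was 0.65 (limma adjusted p = 0.222). INHBE, the activin E subunit, known as a liver-secreted factor, had 519, 189 and 622 in KD1 to KD3, against 297, 269 and 197 in VV1 to VV3. KD2 here was the lowest of all 6 libraries, and without it the difference of 0.52 (limma, adjusted p = 0.322) became 0.93 and passed (limma, adjusted p = 0.0444). INHBA, the activin A subunit, was near the detection limit, with at most 7.55 normalised reads in any knockdown library and 8.83 in any WT library, and was not tested.

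TGFB1 was the main TGF-beta ligand. TGFB1 had 4295, 3527 and 3976 normalised reads in KD1 to KD3, against 4939, 4858 and 5038 in VV1 to VV3. All knockdown values lay below all WT values, with a difference of −0.33 (SE 0.12) that did not pass (limma, adjusted p = 0.138). TGFB1 shares 215 exon bases with HNRNPUL1 on the other strand, and whether counting used strand is unknown. Per kb of exons it held 98.3% ± 0.537 of the reads of the 3 TGF-beta ligands in knockdown and 98.6% ± 0.298 in WT (SD, n = 3 each). TGFB3 had 99.4 ± 24.1 normalised reads in knockdown and 101 ± 25.8 in WT, a difference of −0.01. TGFB2 had 4.05, 0 and 0 in KD1 to KD3 and 0, 3.78 and 8.44 in VV1 to VV3, and was not tested.

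**Figure D2:**
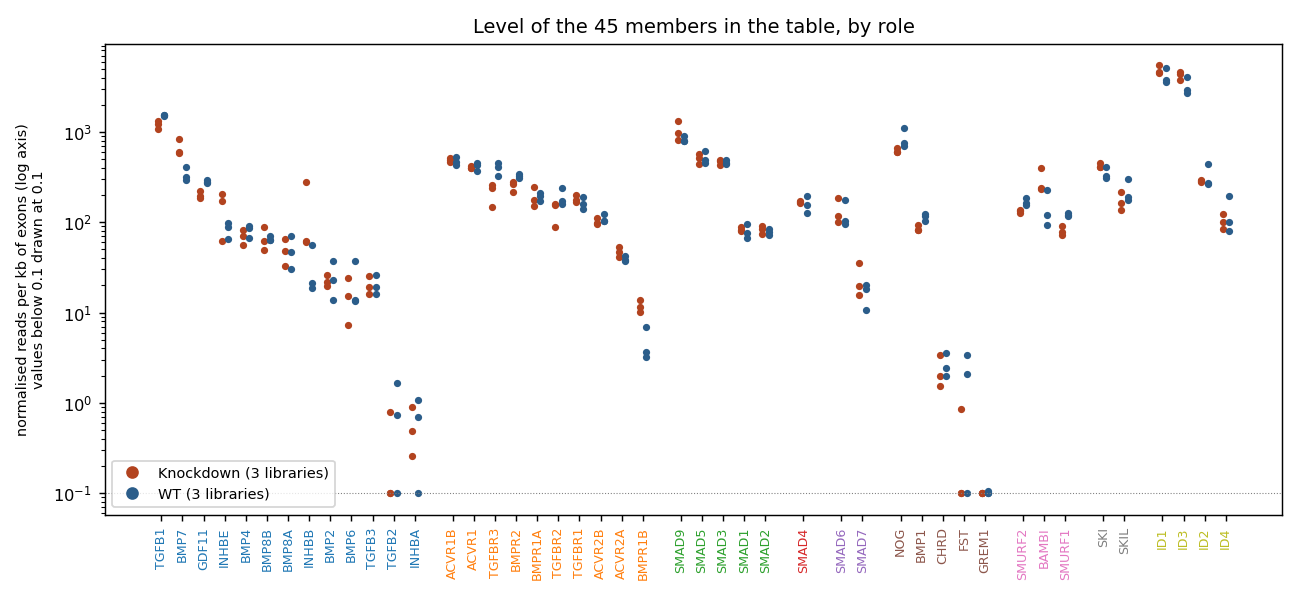
Level of each of the 45 members in the table, in normalised reads per kb of annotated exons on a log axis, with 1 point per library, Knockdown left of WT, grouped and coloured by role. ID1 and ID3 were the most abundant members per length, and TGFB2, INHBA, CHRD, FST and GREM1 lay lowest.

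The receptors ranged over a wide span of levels, and among 10 of them TGFBR3 was the only call, where 4.1% of all tested genes were called. At an unadjusted p under 0.05, 1 receptor was higher and 2 were lower (30%, compared with 22% of all tested genes). TGFBR3 presents TGF-beta to its type II receptor and also binds inhibin. The gene lies at chr1:91680343-91906335 on the minus strand. TGFBR3 had 2111, 1293 and 2229 normalised reads in KD1 to KD3, against 2830, 3910 and 3568 in VV1 to VV3. Every knockdown library was below every WT library, and KD2 was the lowest. The means were 1877 ± 510 in knockdown and 3436 ± 552 in WT (SD, n = 3 each), and TGFBR3 fell by 0.86 on the log2-like scale (SE 0.20, limma adjusted p = 0.04), to 54.6% of WT. Without KD2 the difference was −0.63 (limma adjusted p = 0.0955). TGFBR2, the TGF-beta type II receptor kinase, had 747, 420 and 735 in KD1 to KD3, against 747, 1127 and 801 in VV1 to VV3. KD2 was again the lowest, while KD1 equalled VV1 to the read shown, and the difference of −0.45 (SE 0.21) did not pass (limma, adjusted p = 0.234). TGFBR1, its type I partner, had 1238 ± 119 in knockdown and 1124 ± 172 in WT.

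Among the BMP receptors, the 2 with the lowest unadjusted p differed in sign. BMPR1B, a type I BMP receptor of neural and skeletal progenitors, had 71.8, 64.1 and 86.9 normalised reads in KD1 to KD3, against 20.5, 23.3 and 43.8 in VV1 to VV3. The groups did not overlap, and the ratio of means was 2.54. The difference was 0.58 (SE 0.14, 95% interval 0.26 to 0.90) and narrowly missed the threshold (limma, adjusted p = 0.0527, range over 15 alternatives 0.0153 to 0.193). Per kb of exons BMPR1B was the lowest of the 40 tested members, and between 14 and 81 reads lay on it in each library, so its difference rests on few reads. BMPR2, the type II BMP receptor, had 2597, 3348 and 3171 in KD1 to KD3, against 3659, 3901 and 4121 in VV1 to VV3. All knockdown values lay below all WT values, yet the difference of −0.35 (SE 0.13) did not pass (limma, adjusted p = 0.141). BMPR1A, the other BMP type I receptor, had 2165 ± 545 in knockdown and 2216 ± 231 in WT (SD, n = 3 each), with KD2 the highest library at 2777.

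None of the activin receptors was called. ACVR1B, the activin type I receptor, had 2785 ± 128 normalised reads in knockdown and 2717 ± 285 in WT, a difference of 0.04 with a 95% interval of −0.22 to 0.30. ACVR1, a type I receptor used by BMP7 among others, had 1605 ± 45.1 in knockdown and 1675 ± 172 in WT, a difference of −0.05 with a 95% interval of −0.31 to 0.20. The type II receptors ACVR2A and ACVR2B had 321 ± 41.1 and 1602 ± 146 in knockdown, against 265 ± 15.6 and 1733 ± 164 in WT (SD, n = 3 for each mean). The differences were 0.20 for ACVR2A, with a 95% interval of −0.08 to 0.49, and −0.11 for ACVR2B, with a 95% interval of −0.37 to 0.16. ACVR2A shares 430 of its 6770 exon bases with ORC4 on the other strand, which averaged 1152 normalised reads in knockdown and 890 in WT. Whether reads of ORC4 entered the ACVR2A value was not tested.

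Neither the transducing SMADs nor the inhibitory ones passed the test, where 4.1% of all tested genes were called. None of these 8 genes had an unadjusted p under 0.05 in limma, compared with 22% of all tested genes. Limma voom called none of them and 514 of all 13558 genes. SMAD3, which carries activin and TGF-beta signals, had 4326, 3951 and 4472 normalised reads in KD1 to KD3, against 4136, 4499 and 4019 in VV1 to VV3. Its difference of 0.01 had a 95% interval of −0.24 to 0.26. SMAD2 had 3039 ± 305 in knockdown and 2831 ± 208 in WT, and SMAD4, the shared partner, had 2208 ± 62.3 in knockdown and 2081 ± 434 in WT. Of the BMP-activated SMADs, SMAD1 had 506 ± 28.4 in knockdown and 479 ± 86.4 in WT, and SMAD5 had 4603 ± 543 in knockdown and 4701 ± 779 in WT (SD, n = 3 for each mean). SMAD9, the least studied of these 3, was the most abundant of them per kb of exons, with 1037 normalised reads per kb in knockdown and 829 in WT. It had 4689, 7528 and 5594 normalised reads in KD1 to KD3, against 4532, 4538 and 5161 in VV1 to VV3. KD2 stood above the rest, KD1 lay below VV3, and the difference of 0.29 (SE 0.16) did not pass (limma, adjusted p = 0.327).

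SMAD6 and SMAD7 are made in response to the pathway and block the receptors. SMAD6 had 1017, 1573 and 855 normalised reads in KD1 to KD3, against 823, 878 and 1507 in VV1 to VV3. SMAD7 had 100.2, 176 and 79.4 in KD1 to KD3, against 90.8, 54.2 and 102 in VV1 to VV3. In both genes KD2 was the highest of the 6 libraries and VV3 the highest of WT, and the groups overlapped. The differences were 0.10 (SE 0.24) for SMAD6 and 0.27 (SE 0.19) for SMAD7.

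The secreted regulators that could be tested were both lower without passing. NOG (noggin), which binds BMPs and keeps them from their receptors, had 1124, 1146 and 1253 normalised reads in KD1 to KD3, against 1335, 1423 and 2111 in VV1 to VV3. VV3 stood far above the other libraries, and the difference was −0.41 (SE 0.16, limma adjusted p = 0.175). BMP1, a metalloprotease that cleaves the BMP inhibitor chordin and is not itself a BMP ligand, had 704, 610 and 608 in KD1 to KD3, against 775, 868 and 917 in VV1 to VV3, a difference of −0.36 (SE 0.12, limma adjusted p = 0.12). CHRD (chordin) had 10.1 to 22.5 normalised reads in knockdown and 13.2 to 23.3 in WT. FST (follistatin), an activin trap, had at most 2.52 in knockdown and 10.1 in WT, and GREM1 (gremlin 1), another BMP antagonist, had 1.54 in VV3 and 0 in the other 5 libraries. These 3 were below the filter and were not tested, so of the listed antagonists only noggin was present at a level that could be compared.

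NOG and SMURF2 lie on the long arm of chromosome 17, where tested genes were lower as a set. The 578 tested genes beyond 26 Mb on that chromosome had a median difference of −0.33, against 0.02 over 12789 positioned genes elsewhere. NOG, at 56593699 to 56595590, had −0.41, and the 28 tested genes within 2 Mb of it had a median of −0.31. SMURF2, at 64542295 to 64662068, had −0.30 (SE 0.11, limma adjusted p = 0.163), and its 31 neighbours had a median of −0.36. Both members thus differed by about as much as the genes around them, and the part of their position in these values was not tested. SMURF2 also shares 167 of its 6961 exon bases with CEP95 on the other strand, which averaged 1029 normalised reads in knockdown and 1417 in WT.

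SMURF1, the paralog of SMURF2 and also a ubiquitin ligase for BMP SMADs and receptors, fell. The gene lies at chr7:99027438-99144100 on the minus strand. SMURF1 had 564, 453 and 487 normalised reads in KD1 to KD3, against 799, 735 and 756 in VV1 to VV3. All knockdown libraries were below all WT libraries, and both groups were tight. The means were 501 ± 56.8 in knockdown and 764 ± 32.7 in WT (SD, n = 3 each), 65.6% of WT, with a difference of −0.52 (SE 0.12, limma adjusted p = 0.0429). SMURF1 shares 735 of its 6276 exon bases with TRRAP on the other strand, whose mean was 4164 in knockdown and 5319 in WT, and whether reads of TRRAP entered the SMURF1 value was not tested. The 58 tested genes within 2 Mb had a median of −0.15.

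BAMBI is a pseudoreceptor without a kinase domain that dampens signalling and is itself induced by BMPs and TGF-beta. BAMBI had 551, 919 and 539 normalised reads in KD1 to KD3, against 280, 216 and 521 in VV1 to VV3. The groups did not overlap, although VV3 came close to KD3. The ratio of means was 1.98 and the difference 0.84 (SE 0.25, 95% interval 0.28 to 1.40), which did not pass (limma, adjusted p = 0.092). Without VV3 the difference was 1.12 and passed (limma, adjusted p = 0.0205), and without KD2 it was 0.62 (limma, adjusted p = 0.243).

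**Figure D3:**
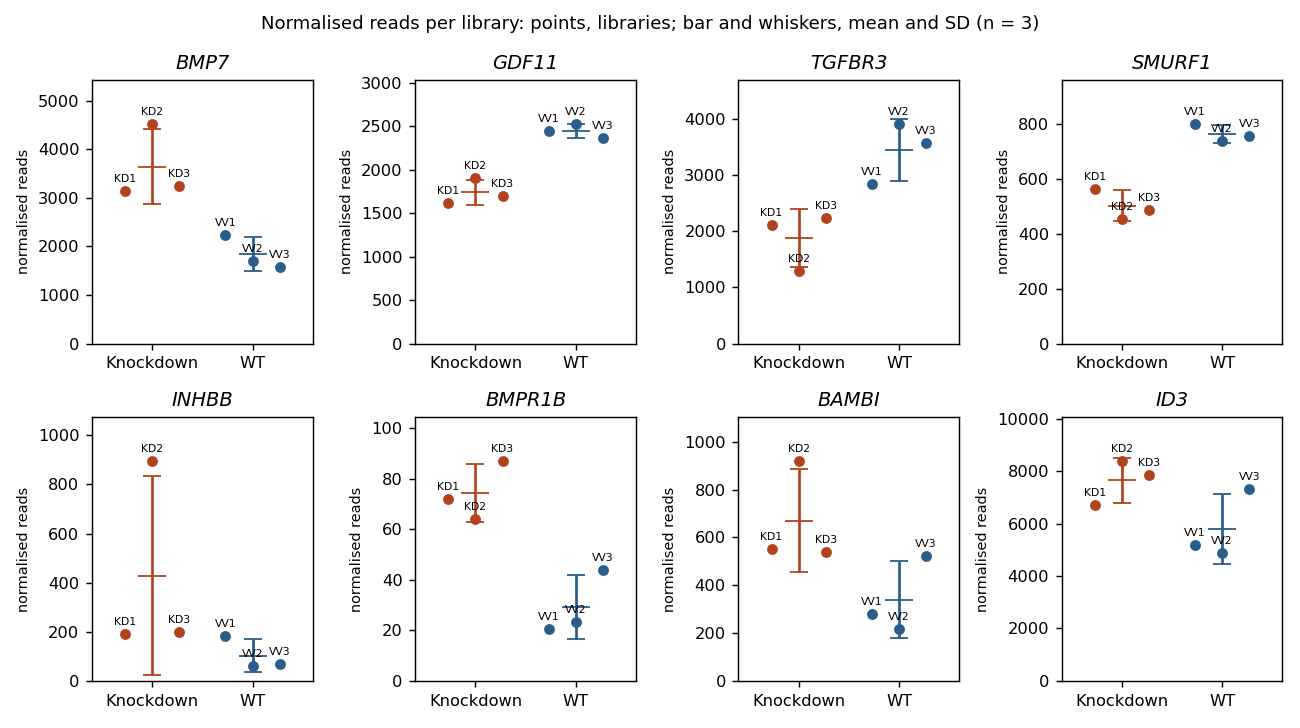
Normalised reads of 8 members in each library, with Knockdown left of WT, the mean as a bar and the SD as whiskers (n = 3 each). The groups do not overlap in BMP7, GDF11, TGFBR3, SMURF1, INHBB, BMPR1B or BAMBI, they overlap in ID3, and KD2 stands apart in INHBB.

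The nuclear corepressors SKI and SKIL, which hold SMAD complexes inactive, had opposite signs. SKI had 2492, 2730 and 2470 normalised reads in KD1 to KD3, against 1895, 1989 and 2510 in VV1 to VV3, a difference of 0.26 (SE 0.13, limma adjusted p = 0.26). SKIL, itself a TGF-beta target, had 1052, 1698 and 1278 in KD1 to KD3, against 1362, 1468 and 2322 in VV1 to VV3, a difference of −0.32 (SE 0.21, limma adjusted p = 0.407). VV3 was the highest WT library in both, and the groups overlapped.

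ID1 and ID3 were the most abundant members per length, while ID2 stood at rank 12 and ID4 at rank 25 of 45. Per kb of exons, ID1 had 4847 normalised reads in knockdown and 4156 in WT, and ID3 had 4255 in knockdown and 3224 in WT. Together ID1 and ID3 made up 95.9% ± 0.459 of the reads per kb of the 4 ID genes in knockdown and 94.4% ± 0.764 in WT (SD, n = 3 each). ID3 had 6716, 8384 and 7836 normalised reads in KD1 to KD3, against 5193, 4871 and 7316 in VV1 to VV3. KD1 lay below VV3, and the difference of 0.41 (SE 0.16) did not pass (limma, adjusted p = 0.18), but without VV3 it was 0.59 and did (limma, adjusted p = 0.0451). ID1 had 5714, 6735 and 5479 in KD1 to KD3, against 4436, 4674 and 6263 in VV1 to VV3, a difference of 0.23 (SE 0.15, limma adjusted p = 0.413). ID2 had 634 ± 18.4 in knockdown and 719 ± 227 in WT, and ID4 had 242 ± 46.8 in knockdown and 292 ± 142 in WT (SD, n = 3 each). VV3 was the highest WT library in all 4 ID genes, with 980 for ID2 and 454 for ID4, the highest of all 6 libraries in both of these.

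SMAD proteins bind DNA at GTCT, and BMP-activated SMADs also at GC-rich elements such as GGCGCC. The promoters of BAMBI, ID1 and ID3, 3 members that the pathway itself induces, are shown to place these motifs. They are RefSeq sequence on GRCh38.p14, from 250 bases before to 50 after the start of the gene, and capitals mark GGCGCC and GTCT on either strand (AGAC is GTCT on the other strand). The motifs do not overlap each other.
BAMBI, chr10:28677271-28677570, plus strand: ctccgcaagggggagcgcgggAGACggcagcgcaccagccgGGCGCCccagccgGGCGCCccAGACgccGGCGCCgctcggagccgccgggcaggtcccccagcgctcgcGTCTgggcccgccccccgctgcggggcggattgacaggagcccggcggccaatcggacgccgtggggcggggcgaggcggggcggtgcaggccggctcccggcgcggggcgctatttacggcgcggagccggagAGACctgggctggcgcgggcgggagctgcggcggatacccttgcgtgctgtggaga
ID1, chr20:31605039-31605338, plus strand: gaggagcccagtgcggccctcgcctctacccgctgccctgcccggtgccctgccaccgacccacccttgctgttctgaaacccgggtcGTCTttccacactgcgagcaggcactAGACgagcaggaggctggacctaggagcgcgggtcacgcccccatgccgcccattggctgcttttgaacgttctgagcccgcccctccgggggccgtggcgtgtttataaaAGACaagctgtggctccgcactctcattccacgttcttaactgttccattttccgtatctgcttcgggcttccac
ID3, chr1:23559452-23559751, minus strand: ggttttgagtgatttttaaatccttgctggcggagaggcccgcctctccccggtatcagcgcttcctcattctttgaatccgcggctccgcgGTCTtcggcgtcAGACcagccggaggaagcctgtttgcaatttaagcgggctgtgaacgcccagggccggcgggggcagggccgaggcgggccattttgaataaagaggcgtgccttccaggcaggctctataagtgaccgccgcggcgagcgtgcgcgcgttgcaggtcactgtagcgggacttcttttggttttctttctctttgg
BAMBI holds 3 GGCGCC and 4 GTCT, ID1 holds 0 GGCGCC and 3 GTCT, and ID3 holds 0 GGCGCC and 2 GTCT in these windows. Promoter sequence was matched for 40 of the 46 listed members, which are not the same 40 as those tested (BMP5 and 5 members below the filter are among them), and 13 of them (32.5%) hold GGCGCC, against 19.2% of 35116 promoters of the same length. GTCT lies in 82.5% of the members' promoters and 84% of all promoters. The members' promoters were not matched to others for base composition, and GGCGCC is made only of G and C. The 35116 promoters were not limited to tested genes. No promoter was matched for BMP1, BMP2, BMP7, INHBE, NOG or SKI.

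The members also varied within groups. KD2 was the highest knockdown library in 21 of 40 tested members (52.5%), among them BMP7, INHBB, SMAD9, SMAD6, SMAD7, BAMBI, ID1 and ID3, where KD2 was highest for 35.4% of all tested genes. It was the lowest knockdown library in 15 of 40 (37.5%), where KD2 was lowest for 41.2% of all tested genes. VV3 was the highest WT library in 19 of 40 (47.5%), among them NOG, BAMBI, SMAD6, SMAD7, SKI, SKIL and all 4 ID genes, where VV3 was highest for 29.6% of all tested genes. VV1 was the highest WT library in 5 members (12.5%) and the lowest in 20 (50%), where VV1 was highest for 35.9% and lowest for 34.8% of all tested genes. The ratio of the highest to the lowest library within a group had a median of 1.29 in knockdown and 1.4 in WT. It was over 2 for BMP6, BMP8A, INHBB, INHBE and SMAD7 in knockdown, and for BMP2, BMP6, BMP8A, INHBB, BMPR1B, BAMBI and ID4 in WT. SMAD3 and GDF11 were among the steadiest, with ratios of 1.13 and 1.18 in knockdown and 1.12 and 1.07 in WT.

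**Figure D4:**
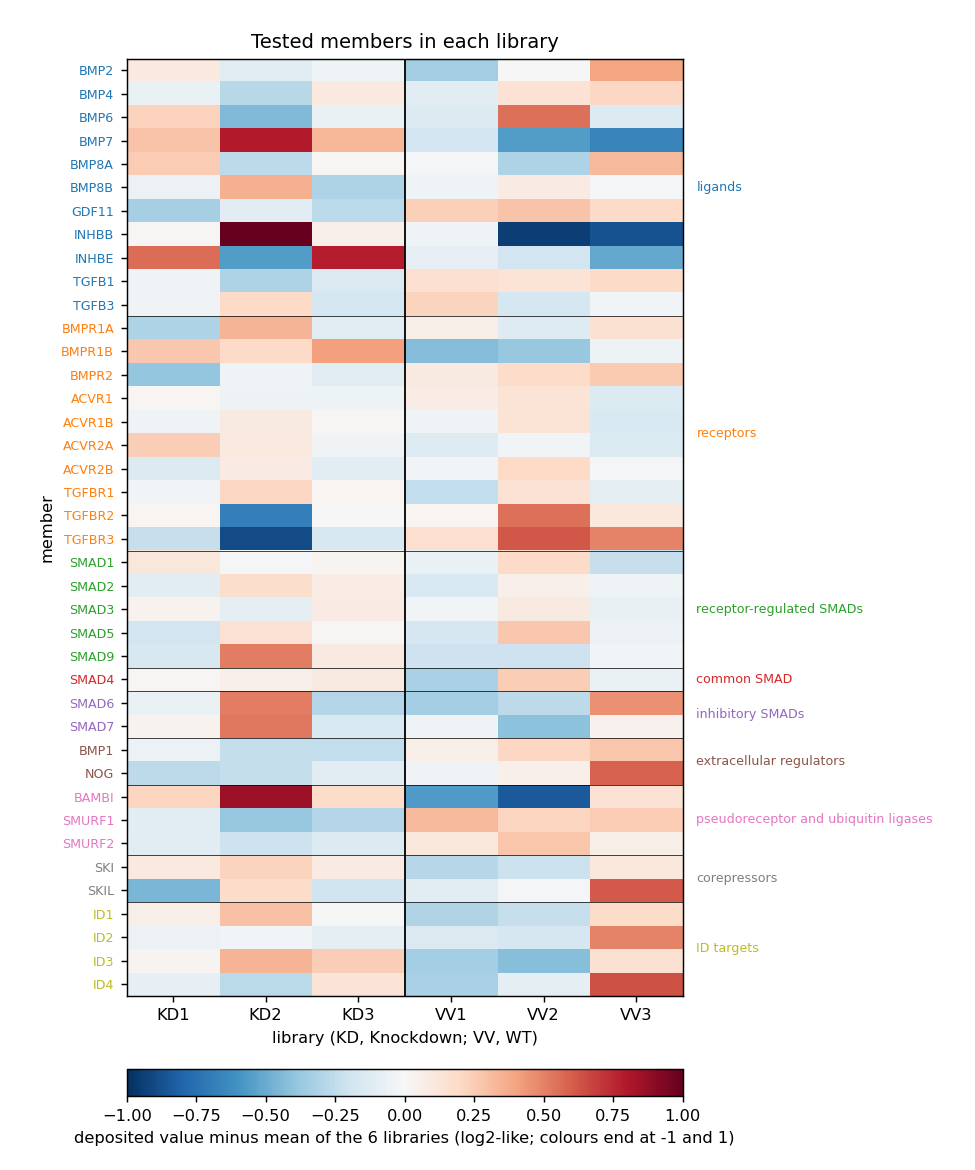
Deposited value of each tested member in each library minus its mean over the 6 libraries, on the log2-like scale, with Knockdown columns left of WT columns and members grouped by role. KD2 is high in BMP7, INHBB and BAMBI and low in TGFBR2 and TGFBR3, and VV3 is high in NOG, SKIL, ID2 and ID4.

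The rest of the pathway was described from a second list of 104 ligands, receptors, regulators and target genes, of which 97 were in the table and 64 were tested. Among these 64, 3 rose and 3 fell, with a median difference of −0.08, where 4.1% of all tested genes were called. The rises described here are NBL1 and HEY1. NBL1, a secreted BMP antagonist of the DAN family, had 758, 749 and 696 normalised reads in KD1 to KD3, against 435, 501 and 481 in VV1 to VV3 (difference 0.54, SE 0.12, limma adjusted p = 0.0341). HEY1, a repressor induced by Notch and by BMP signals, had 1572 ± 56.5 in knockdown and 1082 ± 38.3 in WT (0.50, SE 0.11, limma adjusted p = 0.0335). In both genes every knockdown library lay above every WT library. Without any 1 knockdown library, or without VV2, neither passed.

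The falls were THBS1, TOB1 and HIPK2. THBS1, thrombospondin 1, which can activate latent TGF-beta, had 1207, 719 and 1340 normalised reads in KD1 to KD3, against 1966, 2648 and 3589 in VV1 to VV3 (difference −1.25, SE 0.24, limma adjusted p = 0.0235). TOB1, an antiproliferative protein that can bind BMP-activated SMADs, had 1401 ± 162 in knockdown and 2557 ± 586 in WT (−0.80, SE 0.16, limma adjusted p = 0.0266). TOB1 is on the long arm of chromosome 17, and the 43 tested genes within 2 Mb of it had a median of −0.31. HIPK2, a nuclear kinase that can act as a corepressor in BMP signalling, had 2773 ± 184 in knockdown and 4223 ± 502 in WT (−0.58, SE 0.12, limma adjusted p = 0.0316). None of these 3 passed without KD1 or without KD2. THBS1 alone passed without KD3, and TOB1 alone passed without VV2.

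Ligands and receptors of the second list held no call. Of 19 listed ligands 3 were tested, and the lowest p was that of AMH, the anti-Mullerian hormone, with 646 ± 141 normalised reads in knockdown and 472 ± 131 in WT (difference 0.39, limma adjusted p = 0.259). Of 8 receptors and coreceptors 7 were tested, 1 higher and 1 lower at an unadjusted p under 0.05 (28.6%, compared with 22% of all tested genes). NEO1, neogenin, which binds repulsive guidance molecules that act as BMP coreceptors, had 705 ± 70.0 in knockdown and 494 ± 121 in WT (0.46, limma adjusted p = 0.142). Of 11 tested target genes, 7 were higher and 4 lower. At an unadjusted p under 0.05, 3 were higher and 2 lower (45.5%, compared with 22% of all tested genes). Among them, MSX2 and CTGF were singled out after their values were seen and do not stand for the set. TSC22D1 had a lower p than either (−0.69, limma adjusted p = 0.057). SNAI1 and SNAI2 were higher, at 0.37 and 0.47 (limma adjusted p = 0.196 and 0.299). MSX2, a homeobox gene induced by BMPs, had 610, 1191 and 725 in KD1 to KD3, against 366, 362 and 566 in VV1 to VV3 (0.80, SE 0.22, limma adjusted p = 0.0742). CTGF, a connective tissue growth factor gene induced by TGF-beta, had 1128, 468 and 947 in KD1 to KD3, against 908, 1644 and 2848 in VV1 to VV3 (−0.94, SE 0.36, limma adjusted p = 0.167). KD2 was the highest library in MSX2, as in BMP7 and BAMBI, and the lowest in CTGF and THBS1, as in TGFBR2 and TGFBR3. These genes were picked after their values were seen, and related genes did not all share their pattern. KD2 was also the highest library in CDKN1A, SNAI2 and TGFBR1, and the lowest in BMP4 and BMP6. Among the knockdown libraries, KD2 was highest for 35.4% and lowest for 41.2% of all tested genes.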

How the data were processed

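The deposited values, 1 for each gene in each library, are on a log2-like scale. The name and values of the table show that the authors normalised and variance-stabilised them. GRCh38 was the build, and STAR, DESeq, Trim Galore, MultiQC, FastQC and CASAVA 1.8.2 are listed, per the submitters' processing notes. How reads were counted, on which annotation and with what strand setting was not given in the sources used here. The lowest value, 5.79, stands for 0 reads. Inverting the stabilising function with the constant 55.2 gave normalised reads, and 100% of values became whole reads within 0.01 after division by the value of 1 read per library. Intervals are 95% intervals of the difference in the limma model, and rest only on the spread between these libraries.

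Genes with a mean at least 1 above the lowest value (27.6 normalised reads) were kept. Groups were compared with limma 3.58.1 under R 4.3.3 (trended empirical Bayes, two-sided, no covariates), checked on simulated data. With 3 libraries a group, exact permutation p-values would be at least 0.1. Positions and exon lengths (union of all annotated exons, which lowers per-kb values of genes with long rare exons such as SMAD2) are GENCODE 29, matched by name. Named were all members, MSI1, and from the second list all called genes, the lowest p of each category and some further target genes. Of these, 1 called gene is counted but not reported here. The members and lists were chosen with earlier results of these data known. Alternatives were other filters, scalings, variance models, library weights, a replicate block, log2(normalised reads + 1), limma voom and each library left out.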

Additional observations from a re-analysis of the deposited data

How the results depend on the processing

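Of the 40 tested members none changed sign where it was called. The members that rose numbered 2 with no filter, with quantile normalisation and without a variance trend, and 3 with library weights, the additions being BAMBI or BMPR1B. With 1 library left out the count of rises was 0 to 4 and that of falls 0 to 2 (limma), while 3 to 7 members were higher and 6 to 9 lower at an unadjusted p under 0.05. Over all genes 1213 were called with library weights (532 higher, 681 lower), and 56 to 726 with 1 library left out (25 to 329 higher, 31 to 397 lower). In the second list 5 rose and 7 fell with library weights, 5 fell with no filter and with median centring, and 0 to 3 rose and 0 to 6 fell with 1 library left out. The cause was not tested, beyond the smaller number of libraries in the last setting.

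With the replicate block, which used the numbers in the column headings, 221 genes were called (101 higher, 120 lower). BMP7 was then the only call among the members, with 0 falls (limma, 8 lower at an unadjusted p under 0.05, and 3 falls by limma voom without a block), and the second list had 0 rises (9 higher at an unadjusted p under 0.05). The pairing has no basis in the labels, and deviations of same-numbered libraries correlated at −0.0045, −0.25 and 0.0046 across genes, so the numbers are not known to pair the samples. Depth limits BMPR1B, BMP6 and the 5 members below the filter.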
